A study of Mus musculus with 55 samples.

Results

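Collagens are the proteins that give connective tissue its fibres and sheets. Here the transcripts of the collagen genes were followed in gonadal white fat of Huntington's disease knock-in mice, in which a CAG repeat of set length lies in 1 copy of the Htt gene. Members were taken as every protein-coding gene of the table whose mouse symbol consists of "Col", a type number, "a" and a chain number. That rule matched 45 of 43432 gene identifiers, of which 42548 had an annotated symbol. One match, Col4a3bp, encodes a ceramide transfer protein and not a collagen, and it was left out. The remaining 44 collagen genes comprised 11 fibrillar, 9 basement membrane and 24 other collagens, and 42 of them passed the filter on low counts and were tested. Col9a2 and Col10a1 did not pass it and are described by level only.

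Each collagen molecule is a triple helix of 3 chains, which may come from 1 gene or from several. Fibrillar collagens (types I, II, III, V, XI, XXIV and XXVII) pack into the banded fibres that carry tension. Type IV forms the meshwork of basement membranes, the thin sheets that surround every adipocyte and line every capillary; types XV and XVIII attach that sheet to the matrix around it, and type VII anchors epithelia. Type VI forms beaded filaments around cells and is abundant in fat, and the fibril-associated collagens (types IX, XII, XIV, XVI, XIX, XX and XXII) decorate the surface of fibres. In white fat the fibrillar and type VI chains come mainly from the stromal fibroblasts and progenitors, whereas adipocytes and endothelial cells make much of their own basement membrane.

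The mice were C57BL/6 animals of 6 months. The knock-in animals were heterozygous and are named Q20, Q80, Q92, Q111, Q140 and Q175 after the repeat length; wild-type (WT) littermates were housed with Q20 animals and the other knock-in animals with mice of their own genotype. Each genotype had 4 males and 4 females, except WT with 4 males and 3 females, which gave 55 mRNA-seq libraries. Total estimated counts per library were between 35094442 and 51363637, with a median of 42009365. Each library is taken as 1 animal, as the titles number them; nothing else in the labels says so, and the p-values measure the spread between these libraries.

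The 8 adipocyte markers, among them Adipoq and Plin1, were present in every library, with a summed level between 4610 and 48880 counts scaled to the library size (CPM). The sex genes of 2 Q140 libraries went against their labels: the library labelled Q140 female 1 carried male genes and the library labelled Q140 male 4 carried Xist. In all, 14 male libraries had at least 100 CPM of epididymis and testis markers, organs that lie against the male gonadal fat pad. Every Q175 male was among them and no WT male. The fit without these libraries took 1 mean per genotype and 1 shared shift between the sexes, and in it Q175 rests on females alone. Calls that were lost in that fit are named beside the result. In whole tissue, fewer cells of a type and less RNA per cell cannot be told apart.

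Collagen levels spanned more than 4 orders of magnitude when compared per transcript length, as the authors' FPKM values (fragments scaled to transcript length and library size). Col3a1, the single chain of type III collagen, was the highest at 210.7 ± 86.8 FPKM (SD, n = 55), 20.25% of the summed collagen FPKM. Col4a1, the main basement membrane chain, followed at 116.8 ± 33.1 FPKM and Col15a1 at 116.4 ± 36.7 FPKM, so these neighbours in the order did not differ beyond their spread. Next were Col6a1 at 93.4 ± 37.2 FPKM and Col1a2, the second chain of type I, at 87.8 ± 42.8 FPKM. These 5 genes together held 61.09% of the collagen FPKM.

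Below them stood Col6a2 at 76.1 FPKM, Col4a2 at 75.6 FPKM, Col5a3 at 44.1 FPKM, Col1a1 at 34.1 FPKM and Col6a3 at 32.3 FPKM. In all, 15 genes averaged at least 10 FPKM, 12 genes between 1 and 10 FPKM and 17 genes less than 1 FPKM. The lowest genes were cartilage collagens and other rare types. Col9a1, Col9a2 and Col19a1 were listed at 0 in 24, 22 and 18 of the 55 libraries, and Col2a1, the cartilage fibre chain, in 6. A rare gene could still be high in a single library: Col22a1, a collagen of muscle-tendon junctions, averaged 2.44 ± 12.5 FPKM but reached 90.1 FPKM in the highest library.

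**Figure D1:**
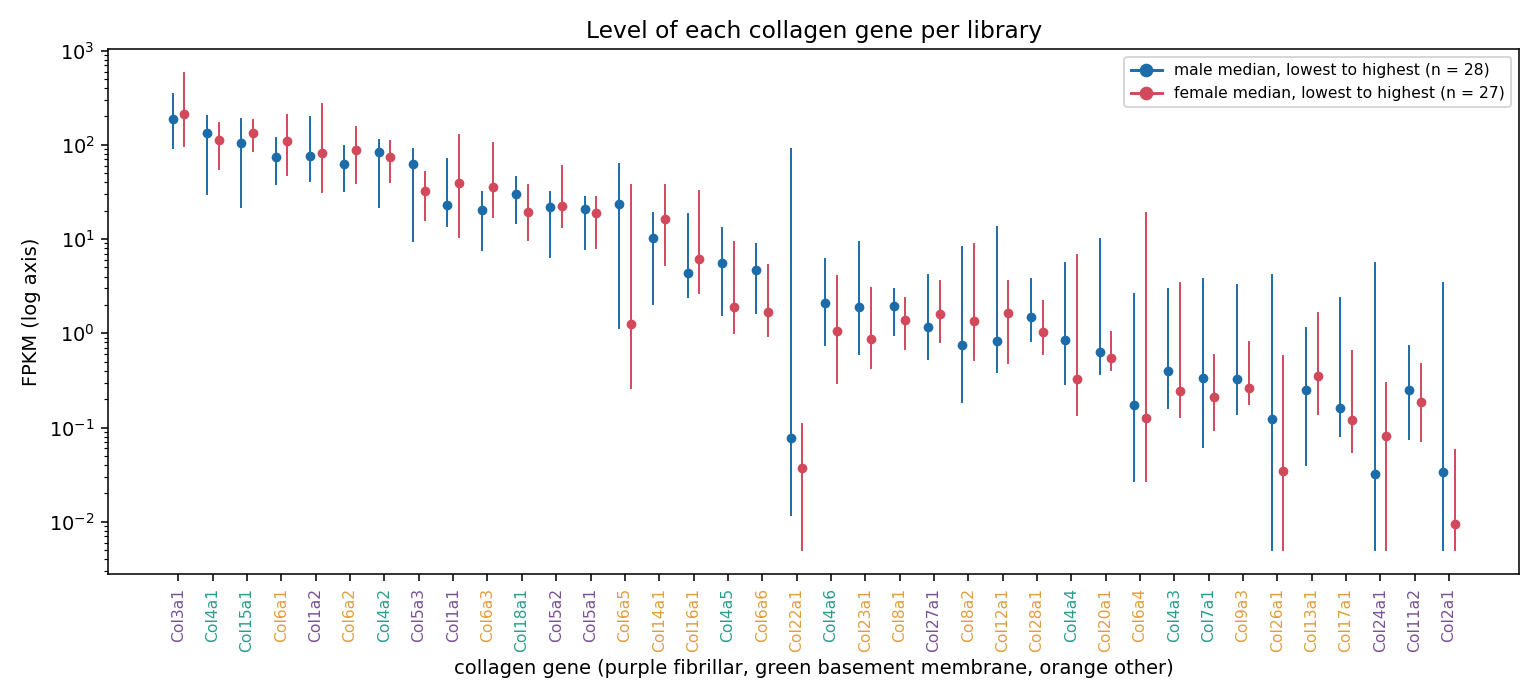
Level of the 38 collagen genes with a mean of at least 0.1 FPKM, on a log axis, with the median as a point and the lowest and highest library as a line, for 28 male and 27 female libraries as labelled; label colour gives the class, and values below 0.005 FPKM are drawn at 0.005. Col3a1 stands highest at a mean of 210.7 FPKM, and Col6a5 has its male median far above its female one.

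Chains that assemble into 1 molecule were compared as ratios of FPKM. Type I collagen takes 2 chains of Col1a1 for each chain of Col1a2, yet the ratio of Col1a1 to Col1a2 was below 1, with a median of 0.330 in males (0.239 to 0.463) and of 0.448 in females (0.332 to 0.533). Type IV in most tissues takes 2 chains of Col4a1 for each of Col4a2. The ratio of Col4a1 to Col4a2 was 1.58 in males (1.28 to 1.84) and 1.51 in females (1.30 to 1.78). The ratio of Col6a3 to Col6a1, which meet in equal parts in type VI, was 0.271 in males and 0.366 in females. These are transcript ratios on the authors' length scaling, which sets the ratio between genes.

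Partner chains moved together from library to library. After the mean of each of the 14 genotype and sex groups was removed from log2 CPM, Pearson's r over the 55 libraries was 0.980 for Col4a1 and Col4a2 (Spearman's rho 0.951), 0.966 for Col6a1 and Col6a2 (rho 0.972) and 0.933 for Col1a1 and Col1a2 (rho 0.877). It was 0.959 for Col4a3 and Col4a4 (rho 0.917), the pair typical of specialised basement membranes, and 0.888 for Col4a5 and Col4a6 (rho 0.856). The fibre-forming pair Col3a1 and Col5a2 had 0.831 (rho 0.848). The lowest of the 7 pairs was Col6a5 and Col6a6 at 0.682 (rho 0.554). The 2 Q140 libraries that went against their labels stayed in their labelled groups here. Both genes of this last pair differ between the sexes, and the part of these 2 libraries in its r was not tested. Every r had a permutation p of 0.00001, the smallest that 100000 resamples give, and the largest p of any rho was 0.00002; adjusted over the 7 pairs these stayed at or below 0.00002. Without the 2 libraries farthest from the median on the x axis, r was between 0.563 for Col6a5 and Col6a6 and 0.965 for Col4a1 and Col4a2. Library numbers in the labels formed an unbroken sequence, except for Q20 female 2, whose number stood apart. The sequence was cut where the libraries of Q20 to Q140 end and those of Q175 and WT begin. This gave runs of 39 and 15 libraries. The sample names also change form at the cut, but the labels give it no meaning. Within the run of 39 libraries r was between 0.692 (Col6a5 and Col6a6) and 0.985 (Col4a1 and Col4a2), and within the run of 15 libraries between 0.763 (Col6a5 and Col6a6) and 0.972 (Col6a1 and Col6a2).

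Several of these partners lie side by side in the genome. Col4a1 and Col4a2 are transcribed in opposite directions from starts 21 bases apart on chromosome 8, with their annotated 5′ ends overlapping, and Col4a3 and Col4a4, Col4a5 and Col4a6, and Col3a1 and Col5a2 also share a chromosome, as do Col6a4, Col6a5 and Col6a6. The promoter windows below, from RefSeq on GRCm38.p6 and 300 bases long each (250 before and 50 after the start), are shown because Col4a1 and Col4a2 had the highest correlation and Col6a5 the largest difference between the sexes. They read 5′ to 3′ on the gene's own strand, and capitals mark 3 motifs on either strand: CCAAT of the CCAAT box, then GGGCGG of the GC box, then TATAAA of the TATA box. The Col4a1 window is chr8:11312777-11313076 on the minus strand, the Col4a2 window chr8:11312555-11312854 on the plus strand and the Col6a5 window chr9:105960594-105960893 on the minus strand.
Col4a1: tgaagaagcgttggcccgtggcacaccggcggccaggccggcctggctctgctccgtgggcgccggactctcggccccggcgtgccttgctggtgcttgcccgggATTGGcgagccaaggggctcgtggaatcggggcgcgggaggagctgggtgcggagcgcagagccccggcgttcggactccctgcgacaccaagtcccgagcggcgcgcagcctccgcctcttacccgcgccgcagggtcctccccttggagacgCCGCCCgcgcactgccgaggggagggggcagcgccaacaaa
Col4a2: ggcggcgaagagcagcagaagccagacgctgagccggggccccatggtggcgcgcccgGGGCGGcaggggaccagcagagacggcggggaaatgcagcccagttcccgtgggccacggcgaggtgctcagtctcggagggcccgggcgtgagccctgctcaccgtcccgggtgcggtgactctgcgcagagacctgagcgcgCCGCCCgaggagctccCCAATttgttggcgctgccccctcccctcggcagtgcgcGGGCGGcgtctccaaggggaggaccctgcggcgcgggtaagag
Col6a5: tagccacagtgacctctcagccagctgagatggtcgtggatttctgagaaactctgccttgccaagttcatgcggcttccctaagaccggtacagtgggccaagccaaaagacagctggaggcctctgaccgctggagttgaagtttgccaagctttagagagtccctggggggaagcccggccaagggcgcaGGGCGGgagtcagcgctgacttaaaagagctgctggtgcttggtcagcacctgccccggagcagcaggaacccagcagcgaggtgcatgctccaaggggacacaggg
The Col4a1 and Col4a2 windows share 78 bases. Counted from the start, Col4a1 held CCAAT at position -145 and GGGCGG at 9, both on the opposite strand. Col4a2 held CCAAT at -32 and GGGCGG at -192, -48 and 7, of which -48 was on the opposite strand. The GGGCGG at 9 of Col4a1 and at 7 of Col4a2 are the same shared bases, and both windows count them. Col6a5 held 1 GGGCGG at -57. Of 38 windows for 35 collagen genes, 13 (34.2%) held CCAAT, against 12289 of 32851 windows (37.4%) in the whole table. GGGCGG was in 23 collagen windows (60.5%), against 11714 (35.7%) of all, and TATAAA in 5 (13.2%), against 4473 (13.6%). A match is a run of letters, not a bound site.

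By the same measure, over 9836 genes with a mean of at least 10 CPM, the gene most like Col1a1 was Col1a2 (r = 0.933), and then Scrn1 (0.814), Adgra2 (0.804), Ssc5d (0.802) and Maged2 (0.797). The gene most like Col4a1 was Col4a2 (0.980), and then Esyt1 (0.928), Nid1 (0.927), Pxdn (0.920) and Lama4 (0.917), all over 55 libraries. These ranks are by r. In the same order Spearman's rho was 0.877, 0.636, 0.685, 0.706 and 0.726 for Col1a1, so Scrn1 was the lowest of these by rho. For Col4a1 it was 0.951, 0.876, 0.855, 0.83 and 0.79. Nid1 encodes nidogen and Lama4 a laminin chain, both basement membrane proteins, and Pxdn encodes the enzyme that crosslinks type IV collagen.

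The longest repeat was set against WT first. In Q175 fat, 2 collagen genes were higher than in WT and none lower, of 42 tested: Col14a1, a fibril-associated collagen of loose connective tissue, and Col4a5, a chain of basement membranes. The call rule was an adjusted p below 0.05 in edgeR's quasi-likelihood test over all 21113 genes, which called 10.4% of all genes in this comparison, 3.34% as higher and 7.10% as lower. The 2 calls are 1 of 9 basement membrane, 0 of 11 fibrillar and 1 of 22 other collagens. The fitted fold was above 0 for 36 of the 42 genes, and the median log2 change was 0.57, against 0.01 over all genes. By class the median was 0.71 for basement membrane, 0.38 for fibrillar and 0.61 for other collagens, and 17 of 42 collagen genes had an unadjusted p below 0.05, against 5232 of 21113 genes. DESeq2 called 8 collagen genes (14.3% of all genes) and limma voom 25 (39.9% of all genes), so the number of calls depends on the tool. With sequencing lane as a factor edgeR called 1 (1.98% of all genes). Lane is here the L number in the sample names. The same L number and index occur in a Q20 and in a Q175 library, so an L number may pool different lanes.

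Col14a1 (ENSMUSG00000022371) had 64.5, 58.8, 72.7 and 70.1 CPM in Q175 males and 145, 104, 159.6 and 149 CPM in Q175 females. It had 63.9, 12.8, 17.5 and 8.54 CPM in WT males and 26.5, 55.4 and 26.2 CPM in WT females. All Q175 females lay above all WT females, while WT male 1 lay inside the range of Q175 males. The log2 change of Q175 over WT was 1.66 ± 0.32 (SE), with an adjusted p of 0.00104 in edgeR's quasi-likelihood test. In the same fit it was 1.37 ± 0.42 in males (adjusted p = 0.0709) and 1.95 ± 0.48 in females (adjusted p = 0.068 in edgeR's test). It passed there in neither sex. With the female libraries fitted alone it was 1.97 and passed (adjusted p = 0.00725 in edgeR's test). The difference between the sexes was not detectable (male minus female -0.58 ± 0.61). The call held in all 15 alternative settings and in all 55 fits that left out 1 library.

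Col4a5 (ENSMUSG00000031274) had 35, 45.8, 38.8 and 47.4 CPM in Q175 males and 17.9, 17, 23.6 and 21.3 CPM in Q175 females. It had 33.4, 14.4, 14.5 and 26.4 CPM in WT males and 9.05, 11.1 and 6.54 CPM in WT females. Within each sex every Q175 library lay above every WT library, although Q175 females overlapped WT males. The log2 change was 1.04 ± 0.33 with an adjusted p of 0.0341 in edgeR's quasi-likelihood test. The call was lost in 7 of 55 fits that each left out 1 library, those without Q175 female 3 or 4, Q175 male 4, WT female 1 or 3 or WT male 2 or 3, with adjusted p between 0.0536 and 0.112. It was also lost with sequencing lane as a factor (0.64, adjusted p = 0.314), without the libraries rich in markers of epididymis and testis (0.92, adjusted p = 0.208) and in females alone (1.18, adjusted p = 0.126, all in edgeR's test).

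The abundant interstitial chains had positive folds that did not pass. Col3a1 had 1053, 811, 884 and 838 CPM in Q175 males and 1299, 1450, 1804 and 1096 CPM in Q175 females, against 1341, 608, 462 and 641 CPM in WT males and 445, 878 and 581 CPM in WT females. All Q175 females lay above all WT females, and in males the groups overlapped (log2 change 0.69 ± 0.24, adjusted p = 0.0514 in edgeR's test). Col1a1 had 202, 238, 196 and 175 CPM in Q175 males and 333, 322, 478 and 222 CPM in Q175 females. In WT it had 229, 107, 116 and 98.7 CPM in males and 97.2, 264 and 117 CPM in females, so that both sexes overlapped through 1 high WT library each (log2 change 0.82 ± 0.30, adjusted p = 0.0656 in edgeR's test). Col6a1 (0.51 ± 0.20), Col1a2 (0.64 ± 0.25) and Col18a1 (0.39 ± 0.15) came next, with adjusted p between 0.0891 and 0.0946 in the same test.

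The main basement membrane chains had folds near 0. The log2 change in Q175 over WT was 0.18 ± 0.23 for Col4a1, 0.05 ± 0.21 for Col4a2 and -0.07 ± 0.28 for Col15a1 (adjusted p = 0.696, 0.953 and 0.948 in edgeR's test). Col5a3, a fibrillar chain abundant in fat, had -0.24 ± 0.34 (adjusted p = 0.726). Basement membrane collagens made up 32.6% ± 2.5 of the summed collagen FPKM in Q175 (SD, n = 8) and 41.2% ± 4.4 in WT (SD, n = 7). Fibrillar collagens made up 41.3% in Q175 and 37.3% in WT, and other collagens 26.1% in Q175 and 21.4% in WT. The summed collagen level was 6206 ± 1076 CPM in Q175 and 4809 ± 1277 CPM in WT, a log2 difference of 0.37; these sums are descriptions, without a test.

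Markers of other cells moved in the same comparison. Of 10 progenitor and fibroblast markers 7 were higher in Q175, with a summed level of 2370 to 3217 CPM (median 2841) in Q175 and 1292 to 2818 CPM (median 1581) in WT. Of 6 macrophage markers 4 were higher, at 926.5 to 1078 CPM in Q175 and 357.6 to 1107 CPM in WT. None of 8 adipocyte markers passed, with 19160 to 31490 CPM in Q175 and 29860 to 40170 CPM in WT. Epididymis and testis markers summed to between 492 and 2845 CPM in Q175 males and between 0.869 and 32.4 CPM in WT males. In males, genotype and the level of these markers can therefore not be told apart. The sums in females were 0.425 to 5.03 CPM in Q175 and 0.0940 to 0.433 CPM in WT. With both sexes, 2 of 12 tested markers were higher in Q175. The part of these markers in the collagen differences was not tested. Without the libraries rich in markers of epididymis and testis, Q175 was left with its females only, while WT kept both sexes. Col14a1 then had a log2 change of 1.79 and kept its call, and Col4a5 had 0.92 and lost it.

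Within 1 sex no collagen gene passed in the main fit, which takes its spread from all libraries. A fit of the female libraries alone, without the library labelled Q140 female 1, did call Col14a1. Its log2 change there was 1.97 (adjusted p = 0.00725 in edgeR's test), and 1104 of 21113 genes were called. The counts that follow are from the main fit, or from DESeq2 over the same libraries. In males 0 of 42 were called in edgeR's test (1.76% of all genes, 0.284% as higher and 1.48% as lower), 8 had an unadjusted p below 0.05 (4036 of 21113 genes) and DESeq2 called 2 (5.8% of all genes). In females 0 were called (0.199% of all genes, 0.118% as higher and 0.0805% as lower), 12 had an unadjusted p below 0.05 (2716 of 21113 genes) and DESeq2 called 2 (2.67% of all genes). The median log2 change was 0.51 in males, with 34 of 42 folds above 0, and 0.57 in females, with 33 of 42 above 0. The difference of the Q175 effect between males and females was called for 0 collagen genes by edgeR (0.0284% of all genes); 2 had an unadjusted p below 0.05 (499 of 21113 genes), among them Col6a6, whose log2 change was 0.10 ± 0.32 in males and 1.08 ± 0.36 in females.

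Among the genes that make, process and bind collagen, the calls in Q175 over WT were few. Of 8 tested genes of procollagen processing 2 were higher, both enhancers of the protease that removes the C-terminal propeptide. Pcolce2 had 33.1, 25.2, 30.9 and 30.1 CPM in Q175 males and 45.3, 39.7, 50.4 and 45.7 CPM in Q175 females, against 34.1, 8.33, 15.5 and 5.84 CPM in WT males and 14.6, 16.4 and 8.72 CPM in WT females. Every Q175 female lay above every WT female, and WT male 1 again lay high (log2 change 1.34 ± 0.29, adjusted p = 0.00278 in edgeR's test). Pcolce had 0.52 ± 0.17 (adjusted p = 0.0362). Of 5 crosslinking enzymes only Loxl4 passed (0.77 ± 0.24, adjusted p = 0.0305), and of 9 tested collagen receptors Itga2 (3.37 ± 0.86, adjusted p = 0.00912), Itga1 (0.64 ± 0.19, adjusted p = 0.0238) and Ddr1 (0.66 ± 0.22, adjusted p = 0.0412). Itga2, an integrin chain of platelets and epithelia, was 1.03, 0.610, 13.5 and 24.6 CPM in Q175 males and 1.04 to 1.37 CPM in Q175 females, against 0.276 to 0.555 CPM in WT males and 0.141 to 0.331 CPM in WT females, with 2 Q175 males far above the rest; without the libraries rich in markers of epididymis and testis its change was 1.73 (adjusted p = 0.0179). One of 13 TGF-beta and CCN genes was higher, the receptor Tgfbr2 (0.65 ± 0.20, adjusted p = 0.0292). With sequencing lane as a factor Pcolce, Loxl4, Itga1, Ddr1 and Tgfbr2 lost their calls, and each lost it in 7 to 11 of the 55 fits without 1 library; Ddr1 also lost it without the libraries rich in markers of epididymis and testis (0.59, adjusted p = 0.113). None of 15 genes of chain modification and none of 8 of folding and export passed.

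The series of repeat lengths was then followed with Q20 as its reference, since Q20 lies in the normal range of repeat length. In Q175 over Q20, 1 of 42 collagen genes passed (14.2% of all genes, 4.54% as higher and 9.7% as lower): Col27a1, a fibrillar collagen of cartilage and other connective tissue. It had 8.05, 11, 8.75 and 8.22 CPM in Q175 males and 12.6, 13.1, 15.4 and 9.91 CPM in Q175 females, against 7.20, 4.08, 5.26 and 3.66 CPM in Q20 males and 9.19, 6.05, 7.35 and 8.63 CPM in Q20 females. Within each sex all Q175 libraries lay above all Q20 libraries (log2 change 0.77 ± 0.26, adjusted p = 0.0381 in edgeR's test). Against WT the change of Col27a1 was 0.44 ± 0.27 and did not pass. The call was lost in 10 of 55 fits without 1 library and with sequencing lane as a factor (0.73, adjusted p = 0.0615 in edgeR's test). Of the 42 folds, 40 were above 0, with a median of 0.56, against 0.01 over all genes. Col14a1 had 0.82 ± 0.29 (adjusted p = 0.0536), so its value against Q20 was about as large as the value of Q20 over WT, 0.84 ± 0.31 (adjusted p = 0.259).

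Q80, Q111 and Q140 over Q20 called no collagen gene in edgeR's test and none of all genes (0%). An unadjusted p below 0.05 was found for 2 collagen genes in Q80, 7 in Q111 and 7 in Q140, against 1681, 1466 and 2177 of 21113 genes. DESeq2 called 1 collagen gene in Q80 (0.819% of all genes), 1 in Q111 (0.748%) and 0 in Q140 (2.38%). The median log2 change was 0.08 in Q80, 0.30 in Q111 and 0.09 in Q140. Q20 over WT called 0 collagen genes (0.753% of all genes, 0.35% as higher and 0.403% as lower), with 2 at an unadjusted p below 0.05 (2150 of 21113 genes). All these contrasts with Q20 share the Q20 libraries. The library numbers of Q175 and WT are mixed with each other and follow those of the other genotypes, except for Q20 female 2. Place in this sequence and genotype can therefore not be told apart between Q175 and Q20, nor between Q20 and WT. Whether that place marks a batch is not given in the labels.

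Over the 6 knock-in genotypes the slope on repeat length was called for 2 of 42 collagen genes, both upward (8.32% of all genes, 2.65% upward). Among the knock-in genotypes only Q175 had its library numbers mixed with those of WT, after the others in the sequence. In slopes that include Q175, this place and the longest repeat can therefore not be told apart. Col27a1 had a slope of 0.50 ± 0.15 log2 units per 100 repeats (adjusted p = 0.0357 in edgeR's test) and Col28a1, a collagen described in peripheral nerve, 0.43 ± 0.14 (adjusted p = 0.0473). Col28a1 was 8.44, 13.2, 8.65 and 8.99 CPM in Q175 males and 6.74, 5.93, 6.06 and 7.30 CPM in Q175 females, against 3.26, 9.90, 9.69 and 6.02 CPM in Q20 males and 2.78, 3.88, 4.67 and 3.13 CPM in Q20 females; the groups overlapped in males and not in females. Both calls depended on single libraries. Over Q20 to Q140 alone no collagen slope was called (0.00474% of all genes, 0% upward and 0.00474% downward), and Col28a1 lost its call in 27 of 55 fits without 1 library and Col27a1 in 10. With sequencing lane as a factor neither was called (Col27a1 0.52, adjusted p = 0.064; Col28a1 0.30, adjusted p = 0.311), and Col28a1 was not without the libraries rich in markers of epididymis and testis (0.39, adjusted p = 0.105). Over Q80 to Q175, 5 slopes were called upward and 2 downward (12.9% of all genes, 4.45% upward and 8.46% downward). No slope differed between the sexes (0 of 42 in edgeR's test, 1 at an unadjusted p below 0.05, against 1000 of 21113 genes).

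**Figure D2:**
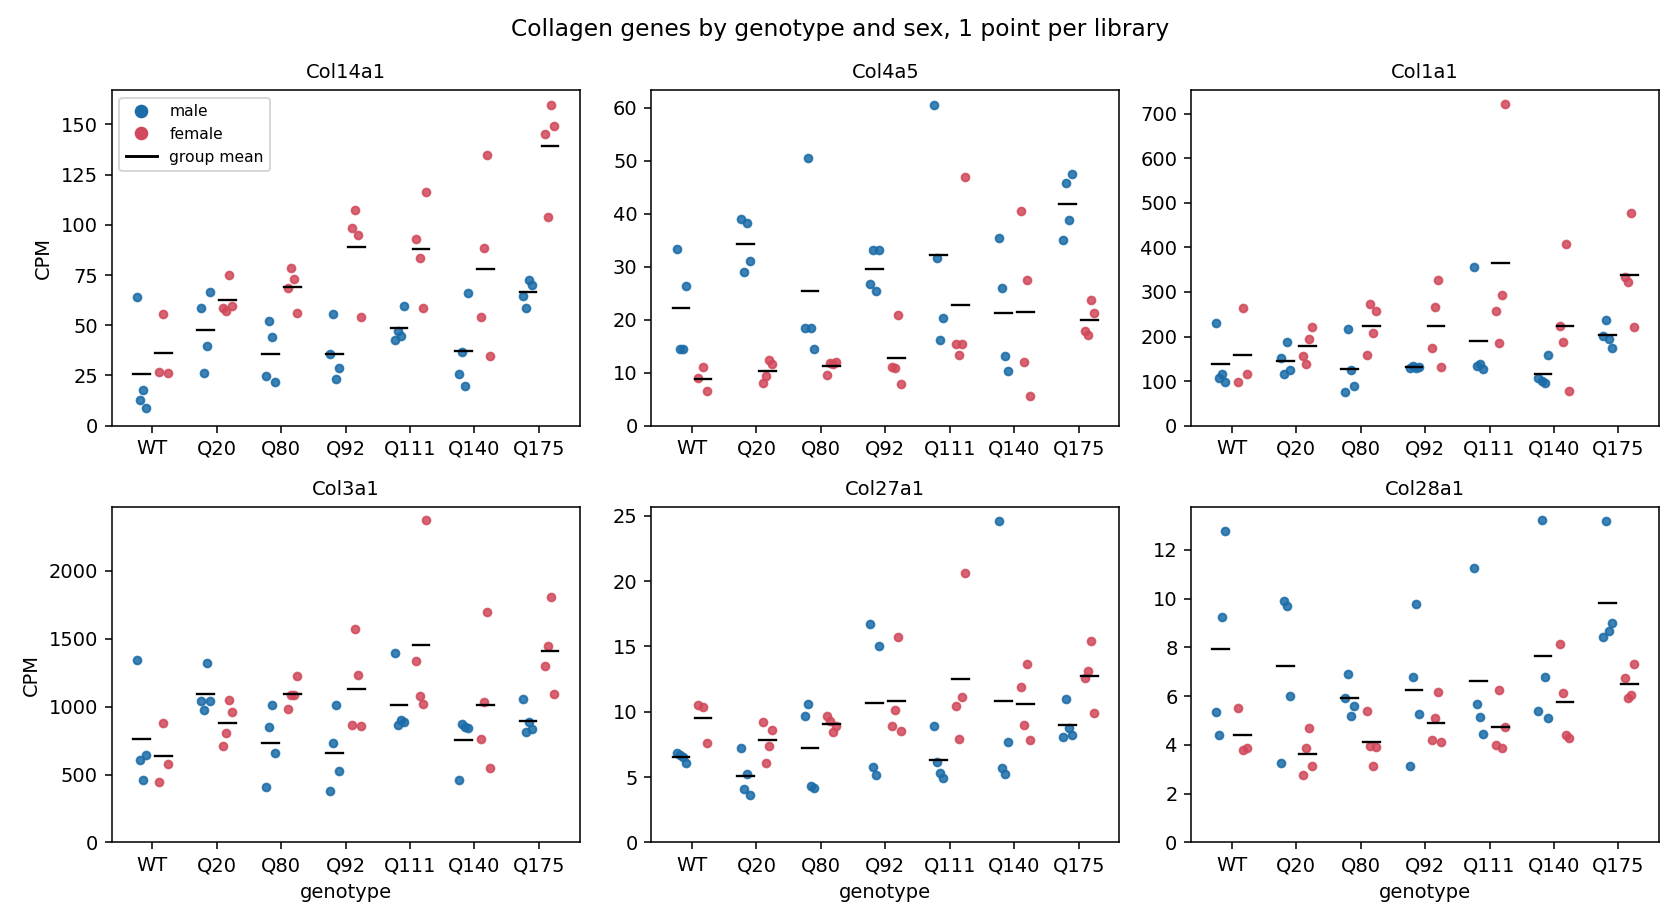
CPM of Col14a1, Col4a5, Col1a1, Col3a1, Col27a1 and Col28a1 by genotype, 1 point per library, with males left of females in each genotype and a bar at the group mean. For Col14a1 the 4 Q175 females sit between 104 and 159.6 CPM, and in males WT male 1 at 63.9 CPM stands apart from the other WT males.

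The levels of the main chains across all genotypes, as mean CPM ± SD with 7 libraries for WT and 8 for each other group, show how much of this is spread. Means of Col1a1 were 147 ± 69.1 in WT, 161 ± 36.7 with Q20, 175 ± 74.6 with Q80, 178 ± 76.2 with Q92, 277 ± 198 with Q111, 169.7 ± 109 with Q140 and 271 ± 102 with Q175. For Col1a2 the mean was 369 ± 115 in WT, 384 ± 81.6 with Q20, 389.9 ± 133 with Q80, 419.7 ± 132 with Q92, 623 ± 340.3 with Q111, 379 ± 190.3 with Q140 and 562 ± 127 with Q175. The level of Col3a1 was 708.1 ± 314 in WT, 988 ± 182 with Q20, 913 ± 265 with Q80, 896 ± 381 with Q92, 1231 ± 502 with Q111, 882 ± 376 with Q140 and 1154 ± 346 with Q175. For these chains of types I and III, Q111 had the highest mean and the largest SD. Col5a1 averaged 157 ± 45.2 in WT, 142 ± 35.7 with Q20, 150.4 ± 44.1 with Q80, 117 ± 36.5 with Q92, 178 ± 21.4 with Q111, 138 ± 46.2 with Q140 and 179.7 ± 25.8 with Q175. Means of Col5a2 were 134 ± 34.5 in WT, 145 ± 33.4 with Q20, 135 ± 40.7 with Q80, 130.0 ± 62.5 with Q92, 196 ± 72.0 with Q111, 129.5 ± 40.9 with Q140 and 171 ± 39.6 with Q175. For Col5a3 the mean was 350.1 ± 156 in WT, 297 ± 99.4 with Q20, 244 ± 121 with Q80, 202 ± 151 with Q92, 272 ± 135 with Q111, 252 ± 151 with Q140 and 269.9 ± 101 with Q175. The type V chains, which sit at the core of fibres of type I, had their lowest mean in Q92 for Col5a1 and Col5a3 and in Q140 for Col5a2.

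The basement membrane chains followed. The level of Col4a1 was 792 ± 247 in WT, 797 ± 236 with Q20, 745 ± 239 with Q80, 653 ± 247 with Q92, 867 ± 94.4 with Q111, 681 ± 233 with Q140 and 869.7 ± 127 with Q175. Col4a2 averaged 536 ± 94.2 in WT, 491 ± 106 with Q20, 478 ± 139.5 with Q80, 397 ± 153 with Q92, 526.2 ± 28.5 with Q111, 437 ± 129.5 with Q140 and 546 ± 70.1 with Q175. Means of Col4a3 were 2.95 ± 1.30 in WT, 2.75 ± 1.24 with Q20, 5.49 ± 6.67 with Q80, 4.73 ± 5.26 with Q92, 4.47 ± 5.38 with Q111, 7.08 ± 8.77 with Q140 and 6.88 ± 6.16 with Q175. The mean of Col4a1 and Col4a2 was lowest in Q92, and the SD of Col4a3 was above its mean in 4 genotypes. For Col4a4 the mean was 7.15 ± 3.65 in WT, 5.63 ± 2.72 with Q20, 11.2 ± 15 with Q80, 10.2 ± 11.9 with Q92, 9.88 ± 13 with Q111, 15.5 ± 20.7 with Q140 and 14.6 ± 14.3 with Q175. The level of Col4a5 was 16.5 ± 9.79 in WT, 22.3 ± 13.3 with Q20, 18.4 ± 13.4 with Q80, 21.1 ± 10.1 with Q92, 27.4 ± 17.6 with Q111, 21.3 ± 12.8 with Q140 and 30.9 ± 12.4 with Q175. Col4a6 averaged 9.88 ± 4.59 in WT, 14.2 ± 9.20 with Q20, 11.1 ± 9.02 with Q80, 12.5 ± 6.94 with Q92, 14.5 ± 6.82 with Q111, 11.3 ± 7.38 with Q140 and 16.9 ± 8.88 with Q175. Both X-linked chains, Col4a5 and Col4a6, had their lowest mean in WT and their highest in Q175. Means of Col15a1 were 517 ± 132 in WT, 495 ± 142 with Q20, 467 ± 212 with Q80, 375 ± 199 with Q92, 478 ± 147 with Q111, 425 ± 165 with Q140 and 502 ± 102 with Q175. For Col18a1 the mean was 125 ± 39.1 in WT, 121 ± 44.2 with Q20, 112 ± 24.2 with Q80, 105 ± 31.6 with Q92, 141 ± 41.1 with Q111, 112 ± 37.2 with Q140 and 154 ± 24.1 with Q175. Neither of these proteoglycan-like collagens passed the test in Q175 over WT.

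Type VI and the remaining chains completed the set. The level of Col6a1 was 302 ± 106 in WT, 348 ± 89.2 with Q20, 376 ± 154 with Q80, 351 ± 154 with Q92, 498 ± 171 with Q111, 335 ± 137 with Q140 and 449 ± 148 with Q175. Col6a2 averaged 253 ± 90.9 in WT, 285 ± 71.5 with Q20, 304 ± 132 with Q80, 278 ± 117 with Q92, 398 ± 125 with Q111, 272 ± 109 with Q140 and 356 ± 113 with Q175. Means of Col6a3 were 166 ± 78.4 in WT, 178 ± 86.2 with Q20, 188 ± 111 with Q80, 169 ± 90.5 with Q92, 275 ± 169 with Q111, 184 ± 141 with Q140 and 260.3 ± 143 with Q175. The 3 classical chains of type VI had 1 shared order at the ends, lowest in WT and highest in Q111. For Col6a5 the mean was 88.9 ± 82.8 in WT, 80.5 ± 88.4 with Q20, 68.4 ± 103 with Q80, 93.1 ± 89.8 with Q92, 96.5 ± 128 with Q111, 94.8 ± 107 with Q140 and 144 ± 141 with Q175. The level of Col6a6 was 34.4 ± 21.9 in WT, 27.7 ± 12.9 with Q20, 24.3 ± 12 with Q80, 23.2 ± 13.1 with Q92, 32.7 ± 20.4 with Q111, 26.9 ± 13.3 with Q140 and 40.7 ± 15.4 with Q175. The SD of Col6a5 was close to or above its mean in every genotype, since each pools males and females. Col14a1 averaged 30.1 ± 21.3 in WT, 55.1 ± 15.4 with Q20, 52.4 ± 21.2 with Q80, 62.3 ± 33.6 with Q92, 68.2 ± 26.7 with Q111, 57.5 ± 38.6 with Q140 and 103 ± 42.3 with Q175. Means of Col12a1 were 4.29 ± 3.08 in WT, 6.13 ± 4.03 with Q20, 9.20 ± 6.82 with Q80, 18.2 ± 22.3 with Q92, 7.79 ± 3.42 with Q111, 8.66 ± 6.74 with Q140 and 9.55 ± 3.33 with Q175. For Col8a1 the mean was 8.38 ± 3.07 in WT, 8.12 ± 1.93 with Q20, 7.25 ± 1.07 with Q80, 8.34 ± 2.76 with Q92, 8.02 ± 2.70 with Q111, 8.57 ± 3.27 with Q140 and 11 ± 1.63 with Q175. Col12a1, a fibril-associated collagen, had its highest mean in Q92, and Col8a1, a short-chain collagen of vessel walls, in Q175.

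In Q92 over Q20 edgeR's test called 6 of 42 collagen genes, all higher (6.11% of all genes, 5.91% as higher). They were Col22a1 (log2 change 4.15 ± 0.86, adjusted p = 0.00239 in edgeR's test), Col2a1 (3.65 ± 0.83, 0.00497), Col9a3 (1.33 ± 0.33, 0.00857), Col20a1 (0.99 ± 0.24, 0.00886), Col25a1 (2.99 ± 0.77, 0.0118) and Col12a1 (1.49 ± 0.47, 0.0468). Col2a1 and Col9a3 are cartilage collagens, Col20a1 and Col22a1 are fibril-associated, and Col25a1 is a transmembrane collagen of neurons and developing muscle. None of the abundant chains was among them.

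These calls rested on a few libraries. Col22a1 (ENSMUSG00000079022) had 84.1, 3.59, 0.279 and 22 CPM in Q92 males and 0.581, 0.144, 0.0483 and 0 CPM in Q92 females, against 0.110 to 0.255 CPM in Q20 males and 0.0518 to 0.112 CPM in Q20 females. Col2a1 had 13.9, 0.457, 0.0507 and 4.28 CPM in Q92 males and at most 0.218 CPM in Q92 females, against at most 0.055 CPM in Q20 males and 0.131 CPM in Q20 females. Q92 males 1 and 4 were far above all Q20 libraries for both genes, and the other Q92 males were closer to them or inside their range. Col20a1 had 15.9 and 9.13 CPM in the same 2 males and 1.8 to 2.92 CPM in the other 6 Q92 libraries, against 1.73 to 3.06 CPM in Q20. Col9a3 had 6.97 and 4.58 CPM in them and 0.408 to 1.14 CPM in the other 6, against 0.357 to 0.896 CPM in Q20. So 4 of the 6 genes shared these 2 libraries.

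Col12a1 and Col25a1 were spread differently. Col12a1 had 72.0, 8.42, 3.32 and 13.3 CPM in Q92 males and 19.3, 13.8, 10.8 and 5.02 CPM in Q92 females, against 13.9, 2.22, 2.88 and 4.73 CPM in Q20 males and 4.35, 4.52, 5.87 and 10.6 CPM in Q20 females. Col25a1 had 1.08, 0.218, 0 and 0.382 CPM in Q92 males and 1.96, 0.264, 0.459 and 0.138 CPM in Q92 females, against 0.0232 to 0.051 CPM in Q20 males and 0.105 to 0.187 CPM in Q20 females. Both overlapped between the genotypes. With the sexes pooled, all 44 collagen genes overlapped in Q92 over Q20, in Q175 over Q20 and in Q175 over WT; of all genes tested, 0.0379%, 4.76% and 3.54% did not overlap there.

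Testis markers were high in the same 2 males. The summed testis markers were 3063, 165, 6.85 and 1347 CPM in Q92 males 1 to 4, and epididymis markers 14860, 5.35, 0.710 and 7222 CPM. Skeletal muscle markers reached 5651 CPM in Q92 male 1, 7140 CPM in Q92 female 1 and 2113 CPM in Q92 female 2, and 6 of 7 muscle markers were called higher in Q92. The part of these tissues in the calls was not tested. Without Q92 males 1 and 4 no collagen gene was called: Col22a1 had 2.24 (adjusted p = 0.642), Col2a1 1.56 (0.884), Col25a1 2.03, Col12a1 0.46, Col9a3 0.31 and Col20a1 0.11. With sequencing lane as a factor none was called either (0.0284% of all genes). Of the genes that make, process and bind collagen, none passed in Q92 over Q20.

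**Figure D3:**
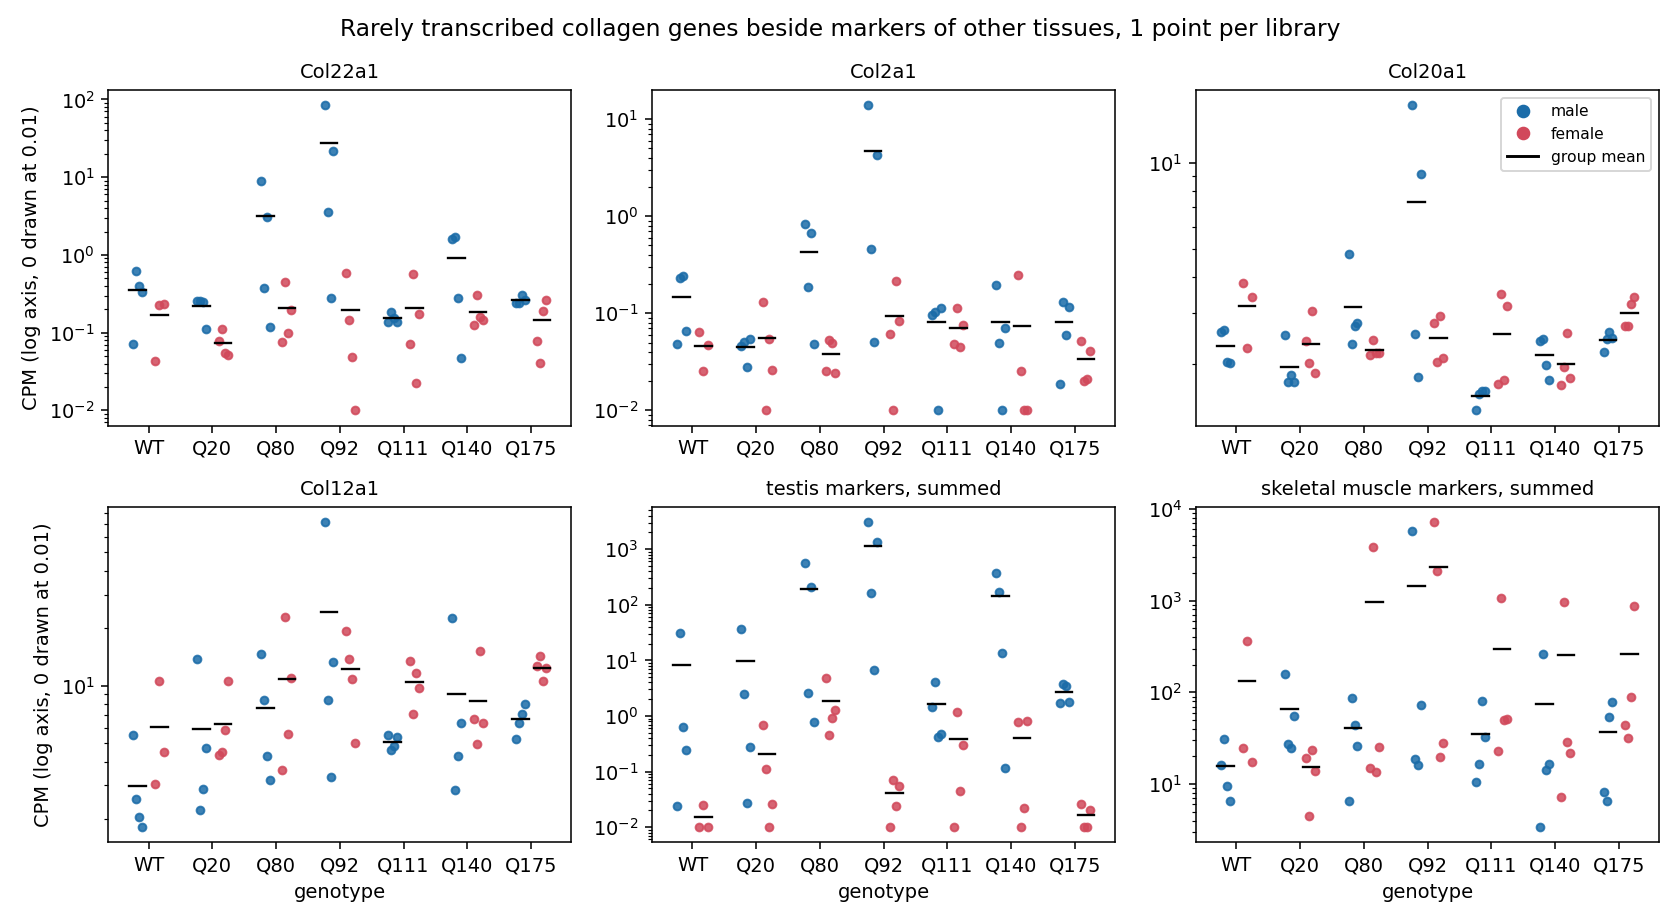
CPM on a log axis, by genotype and sex, for Col22a1, Col2a1, Col20a1 and Col12a1 and for the summed testis and skeletal muscle markers; 1 point per library, with values of 0 drawn at 0.01. Q92 male 1 is the highest library for Col22a1 at 84.1 CPM and has 3063 CPM of testis markers.

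Males and females were then compared. Averaged over the 7 genotypes, 26 of 42 collagen genes differed between males and females, 17 higher and 9 lower in males, against 46.3% of all genes (27.9% higher and 18.3% lower). Of 9 basement membrane collagens 6 were higher and 1 lower, with a median log2 change of 0.90. Of 11 fibrillar collagens 2 were higher and 4 lower (median 0.02), and of 22 other collagens 9 were higher and 4 lower (median 0.21); the median of all genes was 0.07. Without the 2 Q140 libraries that went against their labels 27 genes were called, 18 higher and 9 lower, against 10404 of all 21113 genes. Without the libraries rich in markers of epididymis and testis 23 were called, 11 higher and 12 lower, against 25.6% of all genes (13.5% higher and 12.1% lower). That fit kept the 2 Q140 libraries as labelled, and its only Q140 male was the library labelled male 4, which carried Xist. Of the 17 genes higher in males with all libraries, 9 were still called higher there and 8 were not.

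Type VI held both extremes. Col6a5 (ENSMUSG00000091345), whose chain can stand in for that of Col6a3, had 34.8, 168 and 367 CPM in males (lowest, median and highest of 27) and 2.52, 9.13 and 29.4 CPM in females (of 26) without the 2 Q140 libraries. It was the 1 collagen gene of 44 in which the sexes did not overlap, against 0.327% of all genes tested. With all libraries the log2 change of males over females was 3.75 ± 0.32 (adjusted p = 4.35e-12 in edgeR's test). The library labelled Q140 female 1 had 243 CPM and the library labelled Q140 male 4 had 9.31 CPM. Col6a6, the neighbouring chain, had 17.6, 41.7 and 65.9 CPM in males and 9.79, 15.8 and 33.0 CPM in females (1.23 ± 0.13, adjusted p = 3.38e-10). It was higher in males, with overlap.

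The classical type VI chains were lower in males. Col6a3 had 46.8, 128 and 204 CPM in males and 135, 232 and 562 CPM in females (log2 change -1.12 ± 0.15, adjusted p = 9.49e-08 in edgeR's test). Col6a1 had 162, 297 and 483 CPM in males and 254, 479 and 804 CPM in females (-0.70 ± 0.10, adjusted p = 6.16e-07). Col6a2 had 117, 259 and 390.5 CPM in males and 194, 364 and 596 CPM in females (-0.64 ± 0.11, adjusted p = 7.25e-06). The sexes overlapped for each of the 3 chains, and the calls for all 5 type VI chains named here held in all 14 alternative settings.

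Among basement membrane collagens the rarer type IV chains were higher in males and the main ones were not called. Col4a4 had 3.21, 9.0 and 44.9 CPM in males and 1.53, 3.49 and 6.08 CPM in females (1.74 ± 0.28, adjusted p = 3.8e-06 in edgeR's test). Col4a5 had 13.1, 31.1 and 60.6 CPM in males and 5.66, 11.9 and 46.9 CPM in females (1.0 ± 0.17, adjusted p = 8.46e-06). Col4a6 (0.90 ± 0.18), Col4a3 (1.29 ± 0.27) and Col18a1 (0.52 ± 0.08) were also called higher, and Col15a1 lower (-0.47 ± 0.15, adjusted p = 0.00881). Col4a1 had 0.05 ± 0.12 and Col4a2 -0.03 ± 0.11 (adjusted p = 0.772 and 0.89). Without the libraries rich in markers of epididymis and testis Col4a3 had 0.56 (adjusted p = 0.23), Col4a6 0.58 (0.0708) and Col15a1 -0.23 (0.27) and were not called, while Col4a4 had 1.11 (0.0221) and Col4a5 0.89 (0.00855) and were, and Col4a1 (0.30) and Col4a2 (0.20) were called higher in males. With sequencing lane as a factor Col15a1 was not called (adjusted p = 0.0762).

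Fibrillar chains were mostly lower in males or not called. Col1a1 had 76.3, 129.7 and 356 CPM in males and 76.7, 222 and 721 CPM in females (-0.68 ± 0.15, adjusted p = 3.56e-04 in edgeR's test). Col27a1 (-0.43 ± 0.14), Col3a1 (-0.34 ± 0.12) and Col5a2 (-0.30 ± 0.12) were lower, with adjusted p of 0.011, 0.021 and 0.0292. Without the libraries rich in markers of epididymis and testis Col3a1 had -0.10 (0.682) and Col5a2 -0.08 (0.687), and neither was called with sequencing lane as a factor (0.124 and 0.116). Col5a3 went the other way, with 49.4, 354 and 550.1 CPM in males and 94.4, 204 and 290.0 CPM in females (0.72 ± 0.18, adjusted p = 0.00125), and Col2a1 was also called higher (1.70), but not without the libraries rich in markers of epididymis and testis (0.31, adjusted p = 0.676). Col1a2 (-0.21 ± 0.13) and Col5a1 (0.02 ± 0.10) were not called.

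Of the remaining collagens Col14a1 was lower in males, with 8.54, 42.6 and 72.7 CPM in males and 26.2, 76.5 and 159.6 CPM in females (-0.88 ± 0.16, adjusted p = 2.27e-05 in edgeR's test). The transmembrane collagen Col23a1 was higher, with 5.44, 10.8 and 41.2 CPM in males and 2.95, 4.83 and 7.04 CPM in females (1.36 ± 0.18, adjusted p = 1.07e-07). Col28a1 (0.60 ± 0.13), Col22a1 (2.34 ± 0.43), Col26a1 (2.81), Col9a1 (2.14), Col17a1 (1.23), Col7a1 (1.22) and Col8a1 (0.35) were also higher. The 16 genes not called were Col1a2, Col4a1, Col4a2, Col5a1, Col6a4, Col8a2, Col9a3, Col11a1, Col11a2, Col12a1, Col13a1, Col16a1, Col19a1, Col20a1, Col24a1 and Col25a1. Without the libraries rich in markers of epididymis and testis 6 of these were called lower in males, namely Col8a2, Col12a1, Col13a1, Col16a1, Col20a1 and Col24a1, and 5 of the genes just named as higher lost their call: Col22a1 (0.31), Col9a1 (0.15), Col17a1 (-0.02), Col26a1 (-0.08) and Col7a1 (-0.46), the last 3 with the sign turned, at adjusted p between 0.15 and 0.951 in edgeR's test.

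**Figure D4:**
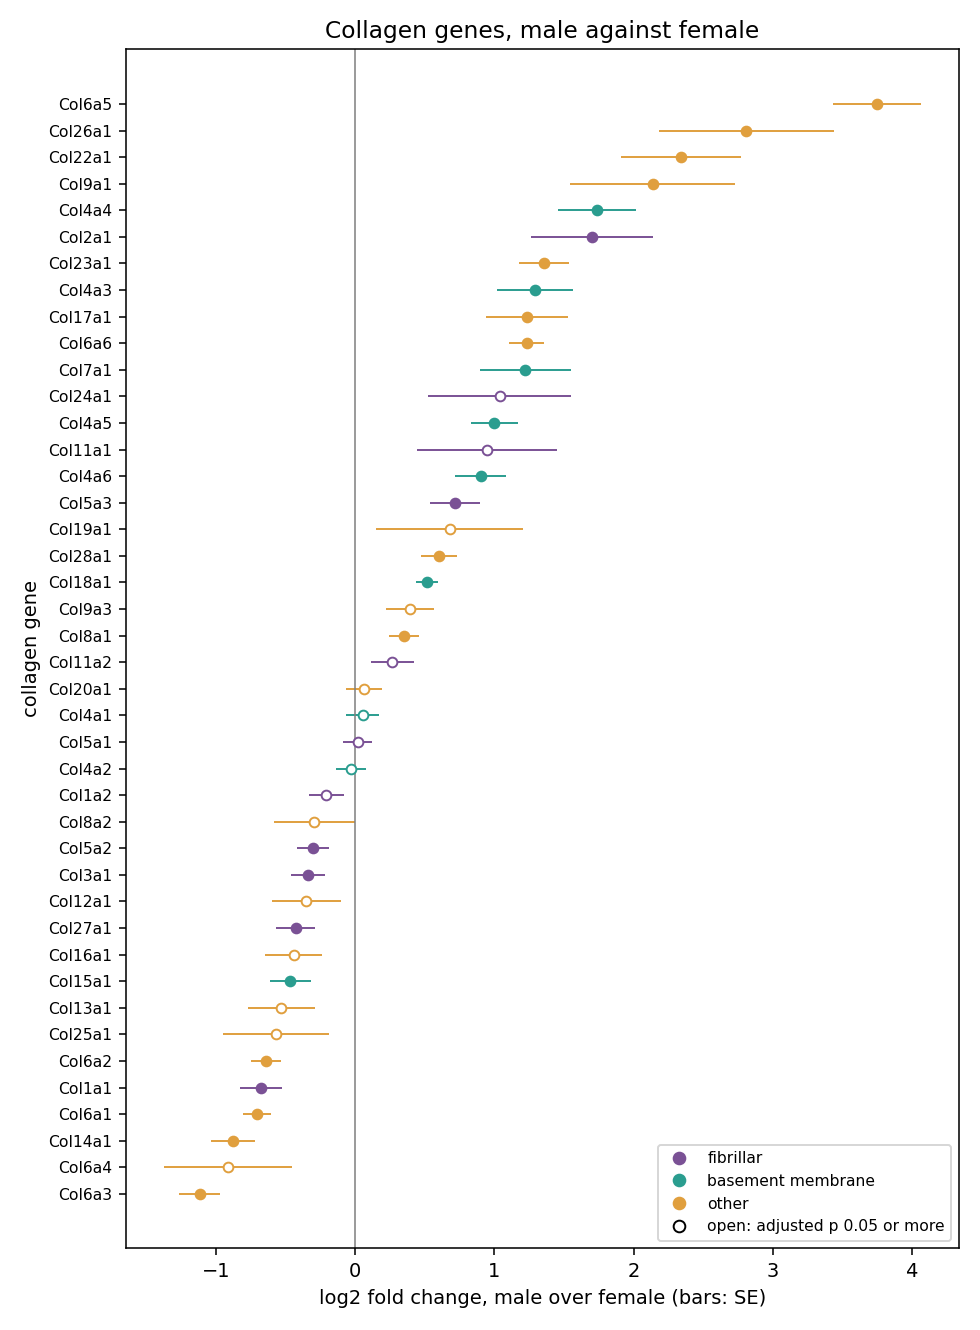
Log2 change of males over females with its SE for the 42 collagen genes tested, averaged over the 7 genotypes, coloured by class; open points have an adjusted p of 0.05 or above. Col6a5 is the highest of the called genes at 3.75 and Col6a3 the lowest at -1.12.

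Epididymis and testis markers moved with sex as well, with 8 of 12 tested higher and 1 lower in males. Of the other lists, 4 of 10 progenitor markers, 6 of 6 Schwann cell markers, 4 of 6 mesothelium markers and 7 of 7 muscle markers were lower in males, and 1 of 8 adipocyte markers. Of all genes 27.9% were higher and 18.3% lower. Summed endothelium markers averaged 979.7 ± 298.3 CPM in males and 873.3 ± 110.9 CPM in females (SD), and macrophage markers 906.1 ± 322.1 and 746.2 ± 178.7 CPM. Those of mural cells, which wrap vessels, averaged 1471 ± 996.1 CPM in males and 2211 ± 2377 CPM in females. These sums are descriptions, without a test. In the 13 males with under 100 CPM of epididymis and testis markers Col6a5 was 66.5, 148 and 367 CPM (lowest, median and highest) and Col6a6 25.8, 42.8 and 65.9 CPM. The medians of the 26 females were 9.13 CPM for Col6a5 and 15.8 CPM for Col6a6. In the same 13 males Col22a1 was 0.0724, 0.184 and 0.622 CPM.

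**Figure D5:**
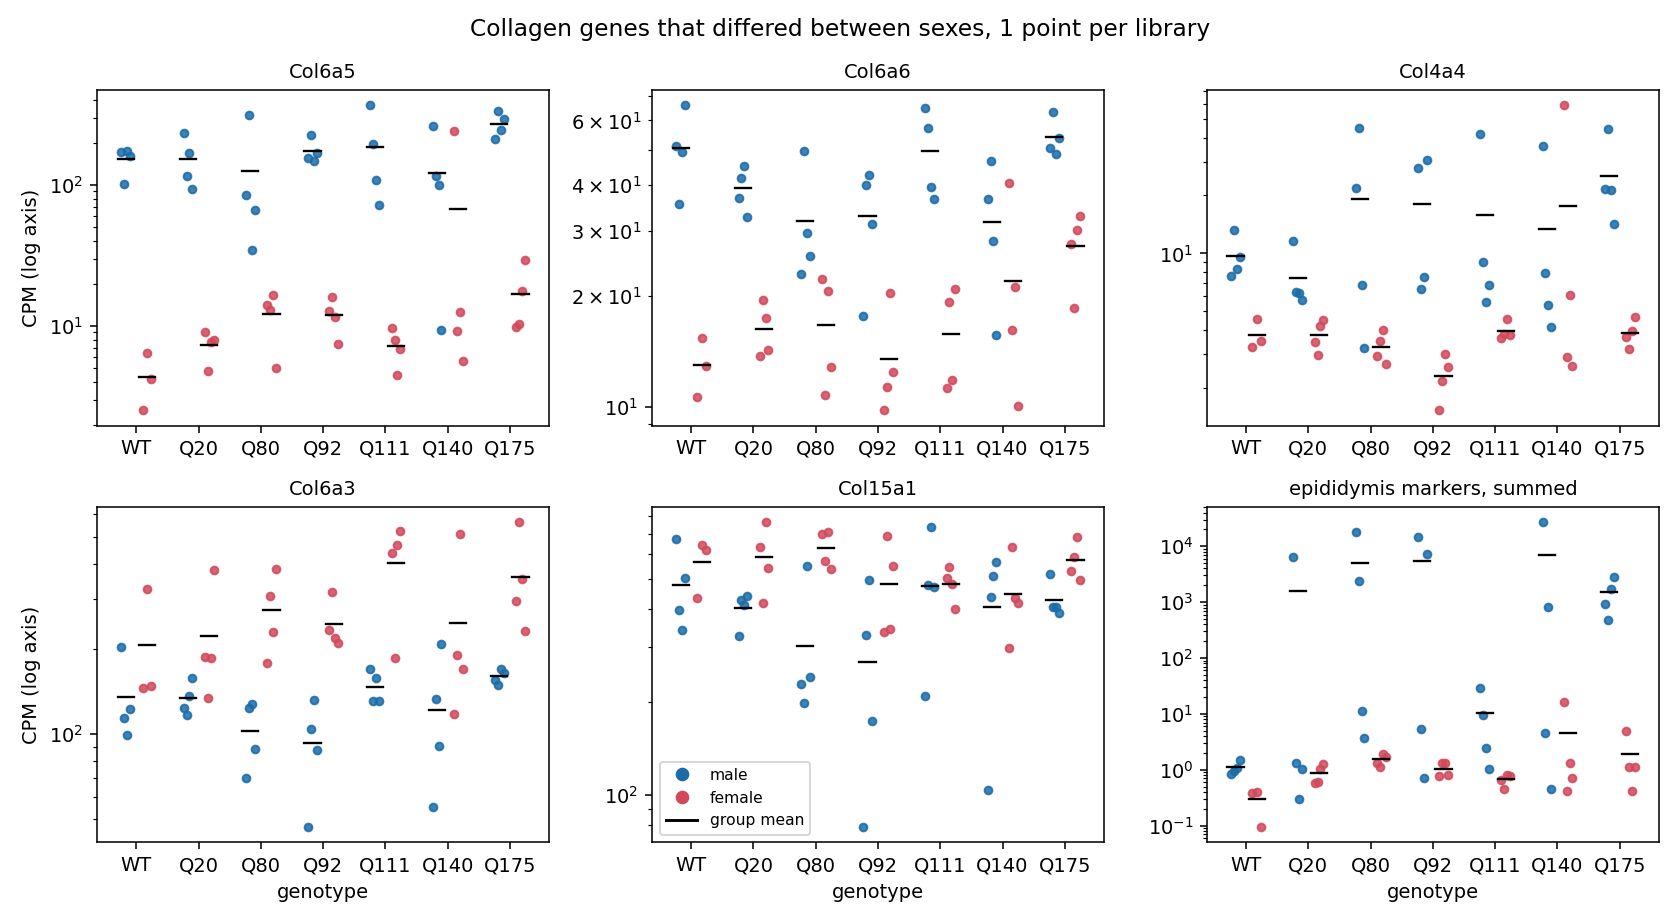
CPM on a log axis by genotype and sex for Col6a5, Col6a6, Col4a4, Col6a3 and Col15a1 and for the summed epididymis markers, 1 point per library. For Col6a5 the only 2 libraries out of place are the library labelled Q140 female 1 at 243 CPM and the library labelled Q140 male 4 at 9.31 CPM.

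The genes that make, process and bind collagen also differed between the sexes. Of 15 genes of chain modification 8 were lower and 1 higher. Plod2, the lysyl hydroxylase of the telopeptides, had 6.89 to 22.5 CPM in males and 21.5 to 151.7 CPM in females without the 2 Q140 libraries (-2.11 ± 0.25 with all libraries), and P4ha3, a prolyl 4-hydroxylase subunit, 0 to 0.291 CPM in males and 0.227 to 8.33 CPM in females (-5.18 ± 0.60). Both overlapped only at the margin. Of the folding and export genes Fkbp10 (-0.49) and Serpinh1 (-0.40), chaperones of the triple helix, were lower and Creb3l1 (0.97) higher. Adamts3 (-1.52) and Pcolce (-0.63) were lower and Tll2 (1.15) higher among the processing genes, and Loxl2 (-0.52) and Loxl3 (-0.37) lower among the crosslinking enzymes. Of the receptors Mrc2 (-1.10), which takes up collagen fragments, and Itga10 (-0.43) were lower, and Itga2 (1.72) and Lair1 (0.35) higher. Mrc2 had 8.18 to 22.8 CPM in males and 20.3 to 57.9 CPM in females without the 2 Q140 libraries. Without the libraries rich in markers of epididymis and testis Itga2 turned to -0.07, and Serpinh1 (-0.13), Tll2 (0.81), Loxl2 (-0.33), Loxl3 (-0.28), Itga10 (-0.32) and Lair1 (0.09) were not called. Lair1 also lost its call in 30 of 55 fits without 1 library. Of the TGF-beta and CCN genes 3 were higher, among them Ccn2 (0.74), and 3 lower, among them Tgfbr2 (-0.40), which was not called without the libraries rich in markers of epididymis and testis (-0.23). The summed collagen level was 4910 ± 1187 CPM in males and 5615 ± 1393 CPM in females (SD, n = 28 and 27), a log2 difference of -0.19.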

How the data were processed

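Gonadal white fat of 55 mice was profiled by mRNA-seq. Per the labels' protocols, tissue was flash frozen, total RNA was extracted with the Qiagen miRNeasy kit and libraries followed standard Illumina protocols. CASAVA 1.8.2 is named in the submitters' processing notes; names of an aligner, a counter or a genome build, and the use of strand, were not given in the sources used here. The authors deposited expected counts per gene, not scaled, of which 33.7% of the values above 0 were not whole, and FPKM values per gene. Neighbouring genes that overlap or share reads could not be checked.

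Groups came from the sample titles. Symbols and gene types came from GENCODE M21. Expected counts were rounded, and 21113 genes passed edgeR's filterByExpr over the 14 groups of genotype and sex. The main test was edgeR 4.0.16 (R 4.3.3), a quasi-likelihood fit with TMM scaling, 1 mean for each of the 14 groups over all 55 libraries and Benjamini-Hochberg adjustment over all genes, with a threshold of 0.05. Contrasts averaged the sexes or, for males against females, the genotypes. The slope is in log2 units per 100 repeats over the 6 knock-in genotypes. Correlations used log2 CPM residuals from the group means. Alternatives were RLE scaling, no filter on low counts (32157 genes), the lane or the replicate number in the model, a trend on gene length removed, DESeq2 1.42.0, voom with quality weights and log2(FPKM + 0.1) or log2(FPKM + 1) in limma 3.58.1, a threshold of 0.01, females alone, and libraries left out. The lane was read from the L number in the sample names, which may stand for lanes of more than 1 flow cell. Leaving out Q92 males 1 and 4, and exchanging the sexes of 2 Q140 libraries, were added after seeing the data. Only the main fit, for Q175 over WT, was tested on simulated counts. Those had the same spread for every gene and no library set apart from its group.

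The collagen genes and all gene lists were chosen with earlier results of these data known. Named are the called collagen genes, at most 10 with the smallest p in each direction, then up to 4 called genes of each list of collagen synthesis, processing and binding; chains of types I, III, IV, V, VI, VIII, XII, XIV, XV and XVIII have values in every group; a few others are named beyond that rule. Samples with the same replicate number did not vary together (mean r of residuals 0.034, against -0.007 for different numbers), so the main fit has no replicate block. Male and female Q140 labels were kept in the main fit.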

Additional observations from a re-analysis of the deposited data

Results flagged for a closer look

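A library was singled out where its gap to the nearest of its group, divided by the range of the group, was above Dixon's value of 0.829 for 4 samples. Of 67 groups checked 8 had such a library, and chance flags about 1 in 20 groups. WT male 1 was far above the other WT males for Col14a1, at 63.9 CPM against 8.54 to 17.5 CPM, and for the summed collagen level, at 7353 CPM against 4280 to 4730 CPM. Without this library Col14a1 remained higher in Q175 than in WT, and 5 collagen genes were called there in place of 2. Q92 male 1 had 72.0 CPM of Col12a1 against 3.32 to 13.3 CPM in the other Q92 males, and carried 3063 CPM of testis and 5651 CPM of muscle markers. Q140 male 1 had 24.6 CPM of Col27a1 against 5.25 to 7.66 CPM in the other males of its group, and carried 26990 CPM of epididymis markers. Q175 male 2 had 13.2 CPM of Col28a1 against 8.44 to 8.99 CPM. In Q20 males 3 low-level genes were singled out: Col22a1 in male 4 at 0.110 CPM against 0.249 to 0.255 CPM, Col20a1 in male 1 at 2.52 CPM against 1.73 to 1.83 CPM, and Col25a1 in male 2 at 0.051 CPM against 0.0232 to 0.0277 CPM. The part of the markers in these values was not tested.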

How the results depend on the processing

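Counts are collagen genes called, of those tested. Q175 over WT (2) had 1 with lane as a factor, with the length trend removed and at a threshold of 0.01, 4 without the 2 Q140 libraries, in females alone and with their sexes exchanged, 8 with DESeq2, 10 and 9 with FPKM plus 0.1 and plus 1, and 25 with voom. Of all 21113 genes 2204 were called in the main fit, 417 with lane and 1500 with the length trend removed. DESeq2 called 3026, FPKM plus 0.1 and plus 1 2361 and 2381, and voom 8416. Without the 2 Q140 libraries it was 2142, in females alone 1104 and with the sexes exchanged 2304. Q175 over Q20 (1) had 0 with lane, with the length trend removed and at 0.01, 4 with RLE scaling, 5 in females alone and without Q92 males 1 and 4, 6 with DESeq2, without the 2 Q140 libraries and with their sexes exchanged, 9 with either FPKM scale and 26 with voom. Over all genes the main fit called 3006, lane 2689, the length trend removed 1631, RLE scaling 3013 and DESeq2 3877. Females alone gave 2809, and leaving out Q92 males 1 and 4 gave 3651. Without the 2 Q140 libraries it was 3106 and with their sexes exchanged 3158. FPKM plus 0.1 and plus 1 called 3812 and 3751, and voom 10453. Q92 over Q20 (6) had 0 with lane, in females alone, without Q92 males 1 and 4 and without the libraries rich in markers of epididymis and testis, 10 with DESeq2 and 19 with voom. Over all genes these settings called 6, 0, 3, 0, 2025 and 7173 in that order, against 1291 in the main fit. The slope (2) had 0 with lane, with the length trend removed, at 0.01 and over Q20 to Q140, 1 without a filter on low counts, without the 2 Q140 libraries and without the libraries rich in markers of epididymis and testis, 5 and 6 with FPKM plus 0.1 and plus 1, 5 with DESeq2, 7 over Q80 to Q175 and 13 with voom. Its difference between sexes had 1 with voom (887 of all genes). Over all genes the slope had 1756 calls in the main fit, 899 with lane, 570 with the length trend removed and 1 over Q20 to Q140. It had 1124 of 32157 without the low-count filter, 1161 without the 2 Q140 libraries and 2362 without the marker-rich libraries. FPKM plus 0.1 and plus 1 gave 2250 and 2351, DESeq2 2691, Q80 to Q175 2725 and voom 7473. Comparisons with 0 calls had, for Q175 over WT in males, 1 with either FPKM scale, 2 with DESeq2 and 14 with voom; in females, 1 without Q92 males 1 and 4 and with either FPKM scale, 2 with DESeq2 and 14 with voom; 2 for Q140 over Q20 without the libraries rich in markers of epididymis and testis; 1 for Q80 and 1 for Q111 over Q20 with DESeq2; and 2 for Q20 over WT with voom. Over all genes, FPKM plus 0.1, FPKM plus 1, DESeq2 and voom called 287, 476, 1224 and 7234 in males. In females they called 154, 124, 564 and 4150, and 99 were called without Q92 males 1 and 4. The settings named for Q140, Q80 and Q111 over Q20 called 536, 173 and 158, and voom called 2019 in Q20 over WT. The cause was not tested. Males against females stayed within 1.5 times of 26 in every setting. Of all genes 5398 were called there without the libraries rich in markers of epididymis and testis and 11224 with FPKM plus 0.1.

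Leaving out 1 library in turn gave 1 to 6 calls for Q175 over WT, 0 to 5 for Q175 over Q20, 1 to 9 for Q92 over Q20, 0 to 5 for the slope, 25 to 29 for males against females, and 0 to 1 for Q175 over WT in each sex and for Q20 over WT. Q92 over Q20 had 1 without Q92 male 1, and Q175 over WT had 6 without WT female 2 and 5 without WT male 1. With the replicate block the counts were 2 for Q175 over WT, 1 for Q175 over Q20, 6 for Q92 over Q20, 2 for the slope and 26 for males against females. Of 66 genes and comparisons named, 66 kept their call with DESeq2 and 64 with the replicate block, 40 with lane and 39 of 65 without the libraries rich in markers of epididymis and testis. Itga2 in males over females reversed there, at -0.07 against 1.72. Col4a5 in Q175 over WT lost its call in 6 of 15 settings, Col12a1 in Q92 over Q20 in 11 of 15. FPKM plus 0.1 moved the median of all genes by 0.16 in Q175 over WT, and 85.9% of its calls there were higher, against 32.0% in edgeR's test; in Q175 over Q20 it moved the median by 0.19 and 84.9% were higher, against 31.9%. The summed collagen level differed by 0.47 (log2, FPKM) in Q175 over WT and by 0.30 to 0.50 in CPM without 1 library. Genes near 1 CPM or below were limited by depth.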
